A study of Mus musculus with 3 samples.

Results

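The miR-181 family was examined in small RNA libraries from mouse livers. The members are the 5p arms mmu-miR-181a-5p, mmu-miR-181b-5p, mmu-miR-181c-5p and mmu-miR-181d-5p, chosen by name and written below without the species prefix. They are 4 of the 1908 mature microRNAs listed, and the other 6 rows named miR-181 are the minor (3p) arms of the same hairpins. Livers came from male C57BL/6J mice, an inbred strain, aged 8 to 10 weeks. The Sham group underwent laparotomy without clamping and was kept for 90 min. In the warm ischemia (WI) group the vessels and bile duct to the left and median lobes were clamped for 90 min. In the ischemia-reperfusion (IR) group the same clamp was followed by 120 min of reperfusion. All mice were fasted and anesthetized with chloral hydrate. Each group of 6 mice gave 1 library, and whether RNA of several mice was pooled is not stated. There is therefore no replicate, every interval, standard error (SE) and p-value below covers counting error between libraries only, and a longer time since surgery in IR cannot be told apart from reperfusion.

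MicroRNAs guide Argonaute proteins to messenger RNAs, mainly by pairing of the seed, bases 2 to 8 of the mature strand, and repress them. Members of a family share the seed and so can bind overlapping sets of targets. The miR-181 family is best known in the thymus and in developing lymphocytes, where miR-181a adjusts the strength of T-cell receptor signalling. MiR-181b has been described as a brake on NF-κB signalling in the endothelium. In the liver the family has been linked to TGF-β signalling and to stem-like tumor cells.

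The mature sequences are shown because the members differ by few bases outside the seed, which bears on how surely a read can be assigned. They are RefSeq sequences (table of build GRCm38.p6), written 5′ to 3′ with the seed in capitals, and all 10 miR-181 names were matched.
miR-181a-5p: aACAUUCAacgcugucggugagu
miR-181b-5p: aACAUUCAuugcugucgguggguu
miR-181c-5p: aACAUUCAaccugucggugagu
miR-181d-5p: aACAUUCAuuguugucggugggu

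All 4 members carried the seed ACAUUCA, and no other mature mouse name in the table did. Positions are counted from 1 at the 5′ end. Against miR-181a-5p, miR-181b-5p had the substitutions A9U, C10U and A21G and 1 more base at the end. MiR-181c-5p lacked base G11 of miR-181a-5p and had no substitution. MiR-181d-5p differed from miR-181b-5p by C12U and by being 1 base shorter. The members thus form the pair a and c and the pair b and d. The genome alignment allowed 1 mismatch but kept only the placements with the fewest, so an exact read of miR-181b-5p that covers the base at which it differs from miR-181d-5p was placed at its own hairpins. The settings of the later count per mature microRNA are not given in the sources used here.

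The minor arms are shown because, unlike the 5p arms of miR-181a and miR-181b, each comes from a single hairpin.
miR-181a-1-3p: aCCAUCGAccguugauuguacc
miR-181a-2-3p: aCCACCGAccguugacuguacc
miR-181b-1-3p: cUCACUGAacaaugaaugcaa
miR-181b-2-3p: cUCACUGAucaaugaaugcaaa
miR-181c-3p: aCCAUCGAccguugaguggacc
miR-181d-3p: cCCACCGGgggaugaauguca

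MiR-181a-1-3p and miR-181c-3p shared the seed CCAUCGA, and both miR-181b 3p arms shared UCACUGA. MiR-181a-1-3p differed from miR-181a-2-3p by U5C and U16C and from miR-181c-3p by U16G and U19G.

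The hairpins lie in 3 clusters of the mm9 genome (NCBIM37), the build named in the methods of the study. Mir181a-1 (chromosome 1, 139863032 to 139863118, plus strand) and Mir181b-1 (139863216 to 139863295) are 97 bases apart and lie outside other annotated genes. Mir181a-2 (chromosome 2, 38708255 to 38708330, plus strand) and Mir181b-2 (38709350 to 38709438) lie in an intron of Nr6a1, a nuclear receptor gene, on the strand opposite to it. Mir181c (chromosome 8, 86702762 to 86702867, minus strand) and Mir181d (86702615 to 86702686) are 75 bases apart and lie outside other genes. MiR-181a-5p and miR-181b-5p were each matched exactly in both of their hairpins, so their reads cannot be divided between chromosomes 1 and 2.

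Between 3784539 (IR) and 5064014 (WI) microRNA reads were counted per library, with 653 to 682 microRNAs detected in each. Read counts were expressed as counts per 1000000 scaled reads (CPM), where the scaled total is that of microRNA reads times a TMM (trimmed mean of M-values) factor. The 4 hepatocyte markers fixed for the tissue check were read in every library and summed to between 259963 and 285072 CPM. Most of the sum was miR-192-5p (236770 to 258042 CPM), and miR-122-5p had 15364 to 18999 CPM. In whole liver, fewer cells of a type and less of a microRNA per cell cannot be told apart.

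The family was first examined for its overall level. The 4 members together took 20653, 27752 and 23378 reads in the Sham, WI and IR libraries. Their share of all microRNA reads was 0.537% for Sham (95% Wilson interval 0.530 to 0.545), 0.548% for WI (0.542 to 0.554) and 0.618% for IR (0.610 to 0.626). On the CPM scale the summed level went from 5215 for Sham to 5704 for WI and 6113 for IR. The order was Sham, WI, IR, and the largest step was a fold change of 1.17 in IR against Sham. On the scale of log2(CPM + 0.1), used for all differences below, the sum was 0.13 higher in WI than in Sham (95% counting interval 0.10 to 0.16). It was 0.10 higher in IR than in WI (0.075 to 0.13) and 0.23 higher in IR than in Sham (0.20 to 0.26). The step from Sham to WI and the step from WI to IR depended on the scaling. The first was 0.03 with library totals, and the second was -0.22 with totals of reads aligned to the genome. Under that last scaling the sum was 0.06 higher in IR than in Sham.

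The members kept 1 order of levels in all 3 libraries, with a highest, then c, b and d. MiR-181a-5p, the dominant member and the one known for tuning T-cell receptor signalling, had 17573, 23681 and 20148 reads in the Sham, WI and IR libraries. Its levels were 4438, 4868 and 5269 CPM, and it ranked 27, 26 and 27 among the microRNAs detected in these libraries. It was lowest in Sham and highest in IR.

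MiR-181c-5p, made by the first hairpin of the chromosome 8 cluster, had 2344, 2997 and 2332 reads in Sham, WI and IR. Its levels of 592, 616 and 610 CPM lay close together, with overlapping counting intervals, and it ranked 68 in every library. MiR-181b-5p, the member linked to NF-κB in endothelium, had 596, 829 and 684 reads, or 151, 170 and 179 CPM. Its Sham interval (139 to 163) overlapped that of WI (159 to 182) and not that of IR (166 to 193).

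MiR-181d-5p, the rarest member and the neighbor of miR-181c, had 140, 245 and 214 reads in the Sham, WI and IR libraries. Its level was 35.4 CPM for Sham (95% exact interval 29.7 to 41.7), 50.4 for WI (44.3 to 57.1) and 56.0 for IR (48.7 to 64.0). Sham was the low library, and WI and IR overlapped. Within each library the intervals of the 4 members did not overlap, and miR-181a-5p had 7.50, 7.90 and 8.64 reads per read of miR-181c-5p in the Sham, WI and IR libraries. Levels of different microRNAs also carry differences in ligation and amplification, which were not corrected.

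**Figure D1:**
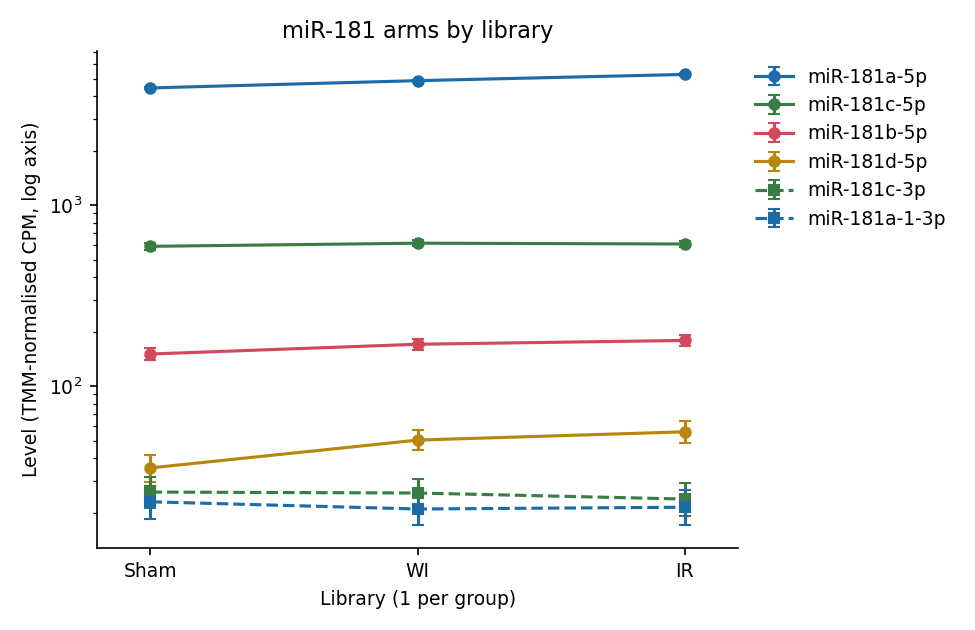
Level of each miR-181 5p arm (circles, solid lines) and of the 2 minor arms with more than 10 reads per library (squares, dashed lines) in the Sham, WI and IR libraries, in TMM-normalised CPM on a log axis, with 95% exact counting intervals and no replicates. MiR-181d-5p moves from 35.4 CPM in Sham to 56.0 in IR, while miR-181c-5p stays between 592 and 616 CPM.

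Warm ischemia was compared with sham surgery to find what differs before blood returns. None of the 4 members was called differentially expressed (DE), that is, with a fold change above 1.5 and a two-sided Fisher's exact p under 0.01. Over all 782 microRNAs tested, 1.92% were called, and 2.44% of the 205 microRNAs with at least 300 reads over the 3 libraries. The 4 members had a median log2 difference of 0.16, beside 0.05 over all tested. MiR-181d-5p had the largest difference, 0.51 on the log2 scale (SE 0.15, fold change 1.42, Fisher's exact p = 0.000845), just under the fold threshold. Among the same 205 microRNAs, 6 had a larger positive difference. MiR-181d-5p was called with totals of aligned reads, where its difference was 0.66, and with TMM factors multiplied by those totals, where it was 0.76. These scalings also moved the median of all tested, to 0.20 and 0.29. The number of microRNAs called went from 15 to 25 and 40. Relative to the median under the same scaling, miR-181d-5p was higher by 0.46 to 0.47 under every scaling run. MiR-181a-5p was 0.13 higher (SE 0.01, fold change 1.10, Fisher's exact p = 1.07e-20). MiR-181b-5p was 0.18 higher (SE 0.08, Fisher's exact p = 0.0220) and miR-181c-5p 0.06 higher (SE 0.04, Fisher's exact p = 0.149). At any fold change, a p under 0.01 was found for miR-181a-5p and miR-181d-5p, 2 of the 4 members, and for 12.3% of all tested.

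Reperfusion was then compared with ischemia alone. Again none of the 4 members was called, while 9.25% of 789 microRNAs tested were, and 18.0% of those with at least 300 reads. Their median log2 difference was 0.09, beside -0.01 over all tested. MiR-181a-5p was 0.11 higher in IR (SE 0.01, fold change 1.08, Fisher's exact p = 1.30e-16). A p under 0.01 at any fold was found for 18.9% of all tested. For the other members the p-value did not pass. MiR-181d-5p was 0.15 higher (SE 0.13, Fisher's exact p = 0.260), with an interval of the fold change from 0.921 to 1.34. MiR-181b-5p was 0.07 higher (SE 0.07, Fisher's exact p = 0.351), with an interval from 0.947 to 1.16. MiR-181c-5p had a log2 difference of -0.01 (SE 0.04, Fisher's exact p = 0.720), with an interval from 0.937 to 1.05. With totals of aligned reads all 4 members were lower in IR than in WI, by log2 values from -0.17 (miR-181d-5p) to -0.34 (miR-181c-5p), and the median of all microRNAs tested was -0.32.

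Reperfused livers were last compared with sham livers. MiR-181d-5p was called higher in the IR library than in the Sham library and was the only one of the 4 members called. In this comparison 7.11% of 774 microRNAs were called, 5.68% as higher. The log2 difference of miR-181d-5p was 0.66 (SE 0.16, Fisher's exact p = 2.00e-05, 0.000191 after Benjamini-Hochberg adjustment over all tested). Its fold change of 1.58 had a 95% counting interval of 1.27 to 1.97, which includes the threshold of 1.5. Of the 205 microRNAs with at least 300 reads, 20 rose more. Of the same 205, 25 were called higher and 6 lower, 15.1% in both directions together. The call was lost in the exact test of edgeR when mice were assumed to vary with a coefficient of variation of 0.1 (p = 0.0102), 0.2 (p = 0.139) or 0.4 (p = 0.444), with totals of aligned reads (log2 difference 0.49) and with TMM factors multiplied by those totals (0.52). The last scaling is the formula in the methods of the study as written. When edgeR instead estimated TMM with the aligned totals as library sizes, the log2 difference was 0.66 and the call was kept. When the reads of miR-181b-5p and miR-181d-5p, which differ by 1 base over their shared length, were summed, the sum went from 736 to 898 reads, a log2 difference of 0.34 (SE 0.07), and was not called.

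MiR-181a-5p and miR-181b-5p were each 0.25 higher in IR than in Sham on the log2 scale. The SE was 0.01 for miR-181a-5p (Fisher's exact p = 1.45e-62) and 0.08 for miR-181b-5p (Fisher's exact p = 0.00209), and the fold change was 1.19 for both. Both p-values passed the threshold, as did those of 16.0% of all tested, and neither fold change did. MiR-181c-5p was 0.04 higher (SE 0.04, Fisher's exact p = 0.313), with an interval of the fold change from 0.972 to 1.09, and its sign turned with 3 of the other 6 scalings. The median of the 4 members was 0.25, beside 0.04 over all microRNAs tested. Relative to that median, miR-181d-5p was higher by 0.58 to 0.63, miR-181a-5p by 0.17 to 0.22 and miR-181b-5p by 0.17 to 0.22 under all 7 scalings run, and miR-181c-5p lay between -0.03 and 0.02.

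**Figure D2:**
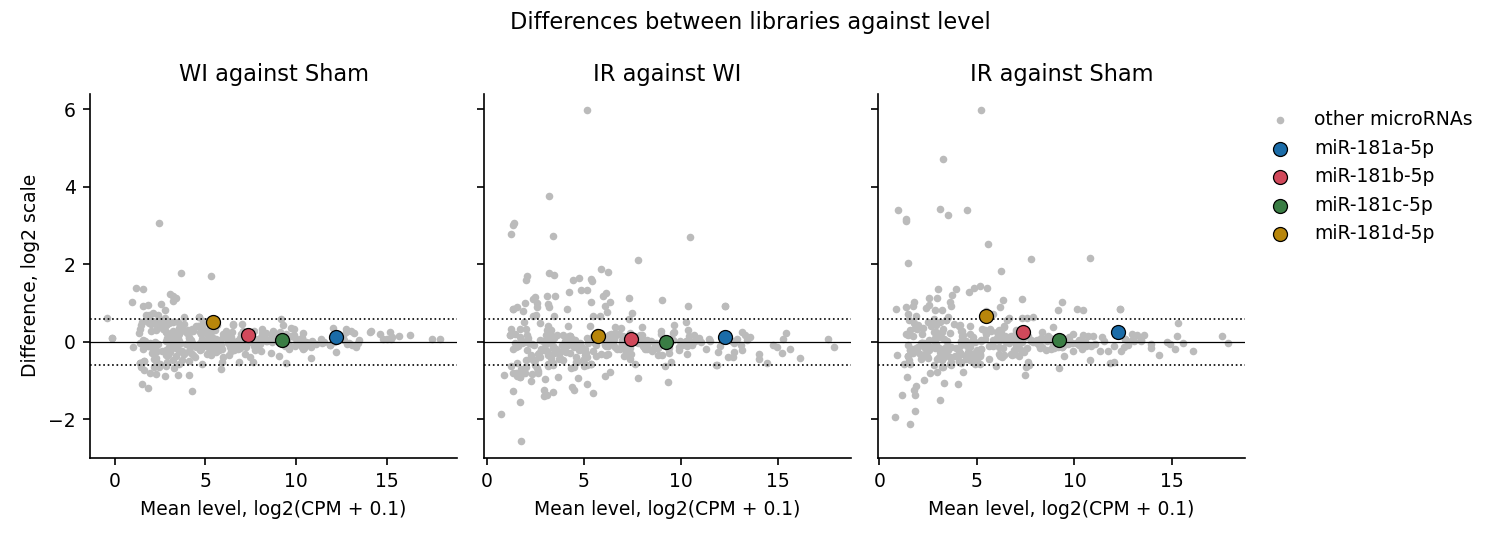
Difference between libraries on the log2 scale against mean level, log2(CPM + 0.1), for the microRNAs with at least 30 reads over the 3 libraries (gray) and the 4 miR-181 5p arms (colored). Dotted lines mark a fold change of 1.5 in either direction. MiR-181d-5p lies under the upper line at 0.51 in WI against Sham and above it at 0.66 in IR against Sham, and the other members stay between -0.01 and 0.25 in all 3 comparisons.

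**Figure D3:**
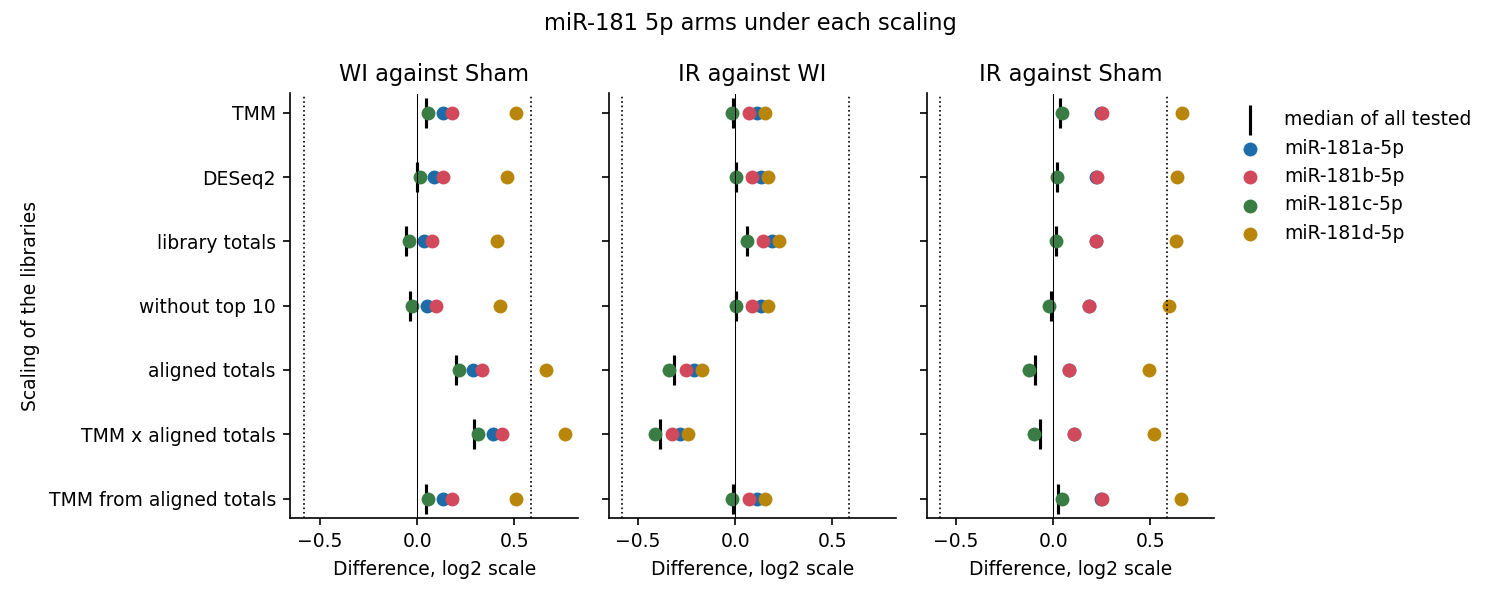
Log2 difference of each 5p arm (circles) and the median of all microRNAs tested (vertical ticks) in the 3 comparisons under 7 scalings of the libraries. Dotted lines mark a fold change of 1.5. The members move together with the median, and miR-181d-5p crosses the threshold in IR against Sham under 5 scalings and in WI against Sham with aligned totals and with TMM factors times those totals.

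Ratios between members within a library do not depend on the scaling, so they show which members moved apart. The share of miR-181a-5p in the family's 5p reads was 85.1% for Sham (95% Wilson interval 84.6 to 85.6), 85.3% for WI (84.9 to 85.7) and 86.2% for IR (85.7 to 86.6). That of miR-181c-5p was 11.3% for Sham (10.9 to 11.8), 10.8% for WI (10.4 to 11.2) and 9.98% for IR (9.6 to 10.4). The IR interval of miR-181a-5p lay above that of Sham, and the IR interval of miR-181c-5p lay below those of Sham and WI. MiR-181b-5p held 2.89%, 2.99% and 2.93%, with intervals that overlapped throughout. MiR-181d-5p held 0.678% for Sham (0.575 to 0.799), 0.883% for WI (0.779 to 1.0) and 0.915% for IR (0.801 to 1.05). Its Sham and IR intervals were narrowly apart.

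The neighbors miR-181c and miR-181d, whose hairpins lie 75 bases apart, thus changed unequally. There were 5.97 reads of miR-181d-5p per 100 reads of miR-181c-5p for Sham (95% exact interval 5.0 to 7.09), 8.17 for WI (7.15 to 9.31) and 9.18 for IR (7.94 to 10.6). The Sham interval lay below both others, and those of WI and IR overlapped. Against miR-181b-5p, its near-identical partner in sequence, there were 23.5 reads of miR-181d-5p per 100 for Sham (19.4 to 28.3), 29.6 for WI (25.5 to 34.1) and 31.3 for IR (26.7 to 36.5), and all these intervals overlapped. Between miR-181a-5p and miR-181b-5p, which share 2 clusters, the ratio was steady, at 3.39, 3.50 and 3.39 reads of b per 100 of a. MiR-181c-5p went from 13.3 reads per 100 of miR-181a-5p for Sham (12.8 to 13.9) to 12.7 for WI (12.2 to 13.1) and 11.6 for IR (11.1 to 12.1).

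**Figure D4:**
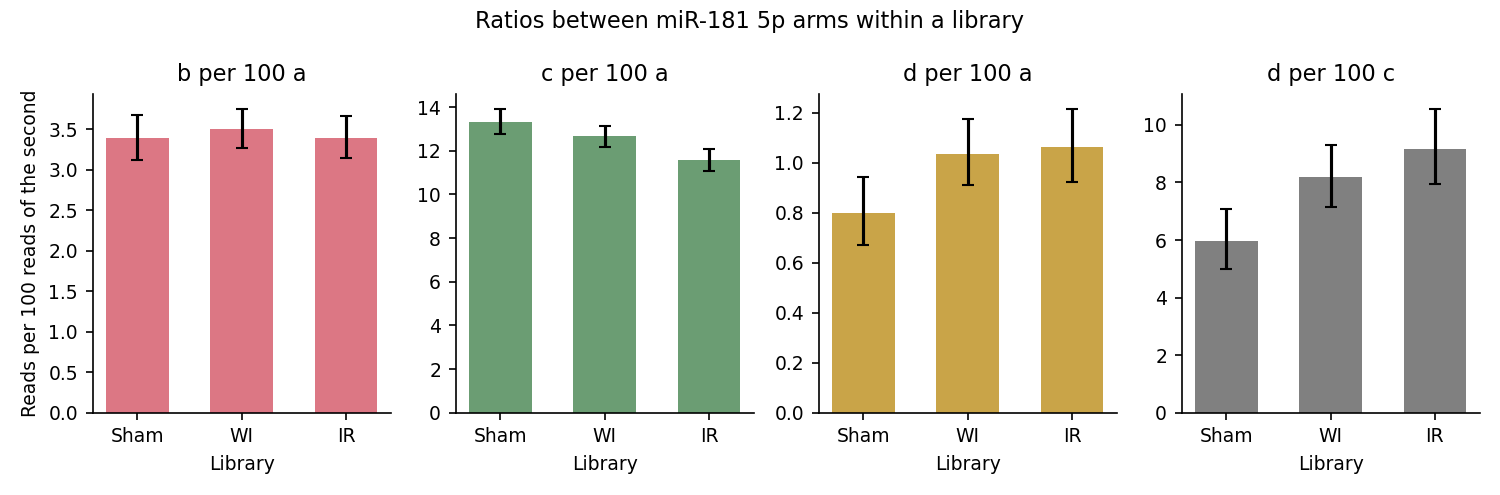
Reads of one miR-181 5p arm per 100 reads of another in the Sham, WI and IR libraries (bars), with 95% exact counting intervals. The ratio of b to a is level near 3.4, c falls against a from 13.3 to 11.6, and d per 100 c is 5.97 in Sham and 9.18 in IR.

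The minor arms were examined to see whether they moved with the 5p arms, since both are cut from the same hairpin. They held 0.954%, 0.850% and 0.739% of the family's reads in the Sham, WI and IR libraries. Only miR-181c-3p and miR-181a-1-3p had more than 10 reads per library. MiR-181c-3p had 103, 125 and 91 reads in Sham, WI and IR, or 26.0, 25.7 and 23.8 CPM. MiR-181a-1-3p had 91, 102 and 82 reads, or 23.0, 21.0 and 21.4 CPM. Neither passed the p threshold in any comparison. In IR against Sham the log2 difference was -0.13 for miR-181c-3p (SE 0.21, Fisher's exact p = 0.566) and -0.10 for miR-181a-1-3p (SE 0.22, Fisher's exact p = 0.704). The fold change of miR-181a-1-3p had an interval of 0.684 to 1.27, which includes the fold change of 1.19 of its 5p arm.

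The other minor arms were near the floor of 3 reads, which stands for 0.758, 0.617 and 0.785 CPM in the Sham, WI and IR libraries. MiR-181b-1-3p had 4, 8 and 1 reads, a ratio of IR to WI of 0.159 with an interval of 0.00358 to 1.19. MiR-181b-2-3p had 0, 2 and 0 reads, and miR-181d-3p had 1, 1 and 0. MiR-181a-2-3p had 0 reads in all libraries. The chromosome 2 hairpin thus gave 0 of 275 minor-arm reads of miR-181a over the 3 libraries. The floor of 3 reads would be a share of 1.09%, which is not a confidence limit. The minor-arm counts say nothing on the 5p arm, which both hairpins make with the same sequence.

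The balance of arms was also compared between miR-181c and miR-181a. Reads of miR-181a-5p cannot be divided between its 2 hairpins, so its ratio is not that of a single hairpin. There were 4.39 reads of miR-181c-3p per 100 reads of miR-181c-5p for Sham (3.57 to 5.35), 4.17 for WI (3.46 to 4.99) and 3.90 for IR (3.13 to 4.81). For miR-181a the 3p arms gave 0.518 reads per 100 of the 5p arm for Sham (0.417 to 0.636), 0.431 for WI (0.351 to 0.523) and 0.407 for IR (0.324 to 0.505). The minor arm was thus better represented for miR-181c than for miR-181a in each library, and neither balance differed between libraries beyond its interval. At this depth, shifts of arm balance in miR-181b and miR-181d were not detectable.

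**Figure D5:**
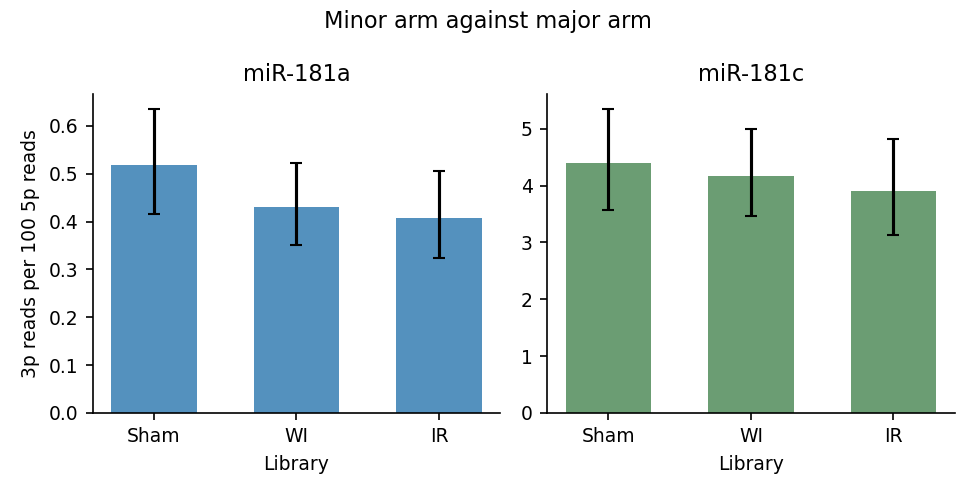
Minor-arm (3p) reads per 100 major-arm (5p) reads for miR-181a and miR-181c in the Sham, WI and IR libraries (bars), with 95% exact counting intervals and separate vertical axes. MiR-181c has 3.90 to 4.39 per 100 and miR-181a has 0.407 to 0.518 per 100, and the intervals of the 3 libraries overlap for each.

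Because miR-181 is abundant in lymphocytes and also made in endothelium, markers of the cell types a liver holds were set beside it. The 3 lymphoid markers (miR-150-5p, miR-155-5p and miR-342-3p) had no call in any comparison. They summed to 275, 216 and 218 CPM in the Sham, WI and IR libraries, with Sham highest. The 4 endothelial markers, led by miR-126a-5p, had no call and summed to 19780, 23356 and 18102 CPM, highest in WI. Of the 4 myeloid and pan-leukocyte markers, 1 was called in IR against Sham, miR-223-3p, which was also called higher in IR against WI, where miR-223-5p was called lower. Their sum was 2965, 2944 and 2702 CPM, most of it miR-142-5p (2735, 2672 and 2342 CPM). MiR-223-3p went from 110 CPM in Sham to 236 in IR. The 4 stromal markers had no call and summed to 39455, 42874 and 35008 CPM, most of it miR-143-3p. No marker of these 4 lists was at 0 reads in any library. The part of these cell types in the differences of the members was not tested.

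The erythroid markers did move with the IR library. All 4 erythroid markers (miR-451a, miR-144-3p, miR-144-5p and miR-486-5p) were called higher in IR against Sham, with log2 differences of 0.61 to 0.85 and sums of 5055, 4781 and 9020 CPM over the same libraries. Of the 3 muscle markers only miR-133a-3p was called, and it was higher already in WI against Sham (fold change 3.47) and again in IR against WI (3.10), with 27, 115 and 280 reads. MiR-1a-3p had 0, 1 and 6 reads and miR-206-3p had 0, 0 and 1, and neither was called. The muscle sum was 6.82, 23.8 and 75.1 CPM. The part of erythroid and muscle cells in the difference of miR-181d-5p was not tested.

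MicroRNA profiles most like those of the family were then sought among 200 other microRNAs with at least 300 reads. Likeness was the root mean square (RMS) difference of log2 levels centered over the 3 libraries, a description over 3 points. Closest to the summed members were miR-106b-5p (RMS 0.00870), miR-345-5p (0.0164), miR-320-3p (0.0226), miR-30b-5p (0.0288) and miR-22-5p (0.0311). MiR-106b-5p had levels of 60.4, 66.0 and 71.7 CPM. Closest to miR-181d-5p were miR-144-3p (RMS 0.0350), an erythroid microRNA with 79.8, 107 and 123 CPM, and both arms of miR-21a, a microRNA induced in injury (0.107 for miR-21a-3p and 0.109 for miR-21a-5p). All of these had Sham as the lowest and IR as the highest library, as did the profiles they were chosen to match. The shared order is therefore no separate result. In WI against Sham, miR-144-3p had a log2 difference of 0.42. The other erythroid markers had 0.01 (miR-144-5p), -0.11 (miR-451a) and -0.09 (miR-486-5p).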

How the data were processed

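Small RNA libraries of Sham, WI and IR livers (1 each) were compared. The deposited values are raw read counts per mature microRNA. The authors trimmed and filtered reads, kept those of 15 to 30 nt, aligned them to mm9 with Bowtie 0.12.7 (1 mismatch, at most 5 positions, placements with the fewest mismatches only), sorted RNA classes with HTSeq and counted with miRDeep2. The submitters' processing notes name mm10, but coordinates here are mm9. How reads that fit several names equally well were counted, and whether PCR copies were removed, is not given in the sources used here.

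Counts were scaled with TMM in edgeR 4.0.16 (R 4.3.3), with factors of 1.03 (Sham), 0.961 (WI) and 1.01 (IR) multiplied by the microRNA read totals. The methods of the study multiply the factor by all mapped reads instead, and both readings of that formula were added as alternatives after the data had been seen. Differences were taken on log2(CPM + 0.1). Fisher's exact test (two-sided, scipy 1.17.1) was run on reads and scaled totals of every microRNA with a read in either library. The fold and p thresholds are those of the study's methods. The test has no term for variation between animals, and edgeR's quasi-likelihood test could not be fitted without replicates. Intervals of ratios and levels are exact (Clopper-Pearson) and cover counting error. Alternatives changed scaling (including DESeq2 1.42.0), thresholds, pseudocount, depth and the test. The procedure was tested on simulated counts with counting error only and with changes larger than those of the members. That test therefore does not cover variation between animals or changes near the fold threshold. Of the 1908 listed names, 1603 were matched to the RefSeq sequence table.

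The members, the marker lists and the likeness rule were chosen with earlier results of these data known. Named are the members, all minor arms, the closest profiles (5 for the sum, 3 for miR-181d-5p) and the markers.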

Additional observations from a re-analysis of the deposited data

How the results depend on the processing

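With 1 library per group no replicate could be left out, and the depth limits miR-181d-5p (140 reads in Sham) and the minor arms most. No paired analysis was possible because each group has 1 library and the labels carry no replicate numbers. The number of members called stayed at 0 in IR against WI under every alternative run. Scaling by TMM factors times aligned totals, and by TMM estimated from aligned totals, was added after seeing the data, and the second moved no call and no sign of a single arm. In WI against Sham the number became 1 with aligned totals and with TMM factors times them. In IR against Sham it became 0 under both, with a fold change above 2, with edgeR's exact test at each assumed coefficient of variation, and with miR-181b-5p and miR-181d-5p summed. The summed share of those 2 was 3.56%, 3.87% and 3.84% for Sham, WI and IR.

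The family total in WI against Sham was 0.085 with DESeq2 size factors, 0.029 with library totals, 0.047 without the 10 most abundant microRNAs and 0.29 with aligned totals. In IR against WI it was 0.17 with library totals and -0.22 with aligned totals. For IR against Sham the total was 0.20 (library totals), 0.16 (without the 10 most abundant) and 0.061 (aligned). With TMM factors times aligned totals the family total became 0.39 (WI against Sham), 0.089 (IR against Sham) and -0.30 (IR against WI). Aligned totals alone put the median of all microRNAs tested at 0.20, -0.32 and -0.09 in the 3 comparisons.

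Other scalings, thinning and pseudocounts recomputed 229 log2 differences of single arms. Of these, 204 had the reported sign and call, 21 had the other sign (none of them called), 2 were no longer called and 2 were newly called. Other thresholds, tests and read minimums leave the difference as it is, and 170 of 174 such values kept their status as called or not. The other 4 were all losses of the only call, that of miR-181d-5p in IR against Sham. They came with a fold change above 2 and with edgeR's exact test at each assumed coefficient of variation. In WI against Sham, miR-181c-5p became -0.043 (library totals) and -0.025 (10 most abundant left out). It became 0.0038 (DESeq2), 0.058 (library totals) and 0.0036 (10 most abundant left out) in IR against WI, and -0.021 (without the 10 most abundant) and -0.13 (aligned) in IR against Sham. With aligned totals in IR against WI, miR-181a-5p became -0.21, miR-181b-5p -0.25, miR-181d-5p -0.17 and miR-181a-1-3p -0.29, and in WI against Sham miR-181a-1-3p became 0.023 and miR-181c-3p 0.14. With TMM factors times aligned totals, miR-181c-5p became -0.097 in IR against Sham. In IR against WI, miR-181a-5p became -0.28, miR-181b-5p -0.33, miR-181d-5p -0.24 and miR-181a-1-3p -0.36, and in WI against Sham miR-181a-1-3p became 0.12 and miR-181c-3p 0.24. After thinning, miR-181a-1-3p became -0.055 in IR against WI. The cause of these shifts was not tested.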

Other observations

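Chromosome 8 also holds the cluster of miR-23a, miR-27a and miR-24-2, on the strand opposite to Mir181c and Mir181d. These microRNAs were chosen after their values were seen. MiR-23a-3p had 296, 350 and 356 CPM in the Sham, WI and IR libraries. Its log2 difference in IR against Sham was 0.27, beside 0.04 for miR-181c-5p and 0.66 for miR-181d-5p. MiR-27a-3p had 827, 762 and 794 CPM, and miR-24-3p, which a second hairpin elsewhere also makes, had 681, 635 and 626 CPM. None of these 3 was called in any comparison. Of the minor arms, miR-24-2-5p had 453, 645 and 461 reads and miR-23a-5p had 0, 0 and 1, and neither was called. MiR-27a-5p had 24, 67 and 20 reads and was called higher in WI against Sham and lower in IR against WI.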
